A study of Mus musculus with 8 samples.

Results

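*Prune2*, *Klhl13*, *Lrrc26*, *Lphn3* and *Sorbs2* are 5 protein-coding genes of the mouse, chosen by symbol because earlier results of these libraries showed them higher in cells labelled knockout than in control cells. They are 5 of the 37310 genes in the table of read counts and 5 of the 13028 genes that were tested. The cells are NMuMG, a line of mouse mammary gland epithelium, and all 8 RNA-seq libraries come from this line. Control cells and cells carrying a CRISPR-Cas9 deletion of the promoter and the first exon of the long non-coding RNA gene *Lnc-Nr6a1* were left untreated or treated with TGF-β1 at 10 ng/mL for 2 h, with 2 libraries in each of the 4 groups. The cells labelled knockout were grown from single sorted cells, and whether their 2 replicates are 1 clone is not given in the sources used here. A difference between clones and an effect of the deletion therefore cannot be told apart.

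Library totals ranged from 4297832 to 7871090 counts in untreated and from 9895118 to 13574397 counts in treated cells, so that 3 counts correspond to 0.238 to 0.661 CPM (read counts scaled to library size with TMM factors). *Lnc-Nr6a1*, listed as *Gm13507*, had 3 and 14 counts in untreated control libraries, 25 and 35 after TGF-β, 11 and 7 in untreated libraries labelled knockout, and 0 and 0 in treated ones. The treated libraries were thus separated by this gene and the untreated ones were not. The genotype of the untreated libraries is therefore given as labelled. *Krt18* and 5 other of 8 simple-epithelial markers were detected, with a summed level of 5870 to 10900 CPM in control and 6630 to 10400 CPM in libraries labelled knockout, and *Cldn3* and *Cldn7* were at 0. Summed markers of basal cells (6 genes) were at 4.88 to 6.03 CPM in control libraries against 2.65 to 3.06 CPM untreated, without overlap, and at 24.0 to 25.7 against 24.4 to 42.1 CPM after TGF-β. Those of blood cells (6 genes) were at 3.38 to 3.42 against 4.19 to 5.58 CPM untreated and at 3.56 to 4.66 against 2.23 to 2.45 CPM after TGF-β, without overlap and in opposite directions. Those of fibroblasts (7 genes) were at 0.965 to 4.44 against 0.797 to 4.73 CPM over both treatments. Markers of neurons (6 genes in the table), in which *Prune2* and *Lphn3* are well known, were at 0.244 to 0.844 CPM against 0.665 to 1.54 CPM untreated, which overlap, and at 0 to 0.469 against 0.556 to 0.571 CPM after TGF-β, which do not, with *Rbfox3*, *Snap25* and *Elavl3* at 0 in every library. Those of adipocytes (5 genes) were at 0 in all 4 control libraries and at 0.0795 to 0.665 CPM in all 4 libraries labelled knockout, with *Adipoq* and *Lep* at 0 throughout. Markers of milk secretion and endothelium stayed below 1 CPM in each library. The part of these markers in the levels described here was not tested.

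The products of these genes act in different places. PRUNE2 is a large cytoplasmic protein with a BCH domain, a lipid- and protein-binding fold found in regulators of small GTPases. KLHL13 is a substrate adaptor of the CUL3 ubiquitin ligase and acts with KLHL9 on the mitotic kinase Aurora B. LRRC26 is an auxiliary subunit of the BK potassium channel in secretory epithelia, where it lets the channel open at resting voltage. Latrophilin 3, the product of *Lphn3* (now *Adgrl3*), is an adhesion G protein-coupled receptor that binds FLRT and teneurin proteins on neighbouring cells. SORBS2 (ArgBP2) is an adaptor with SoHo and SH3 domains that links ABL-family kinases, vinculin and the actin cytoskeleton.

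Because the 5 genes were chosen for their levels in libraries labelled knockout, the differences between genotypes that follow are descriptions and carry no test. In all 5, each of the 4 libraries labelled knockout lay above each of the 4 control libraries, as in 8.30% of the tested genes. They differed in how far they were expressed in control cells. *Prune2* and *Lrrc26* were close to absent there, *Klhl13* was low, and *Lphn3* and *Sorbs2* had at least 450 counts in each control library, so that "switched on" describes only *Prune2* and *Lrrc26*. Whether the higher counts came from more cells expressing a gene or from more RNA per cell cannot be told apart in bulk RNA.

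**Figure D1:**
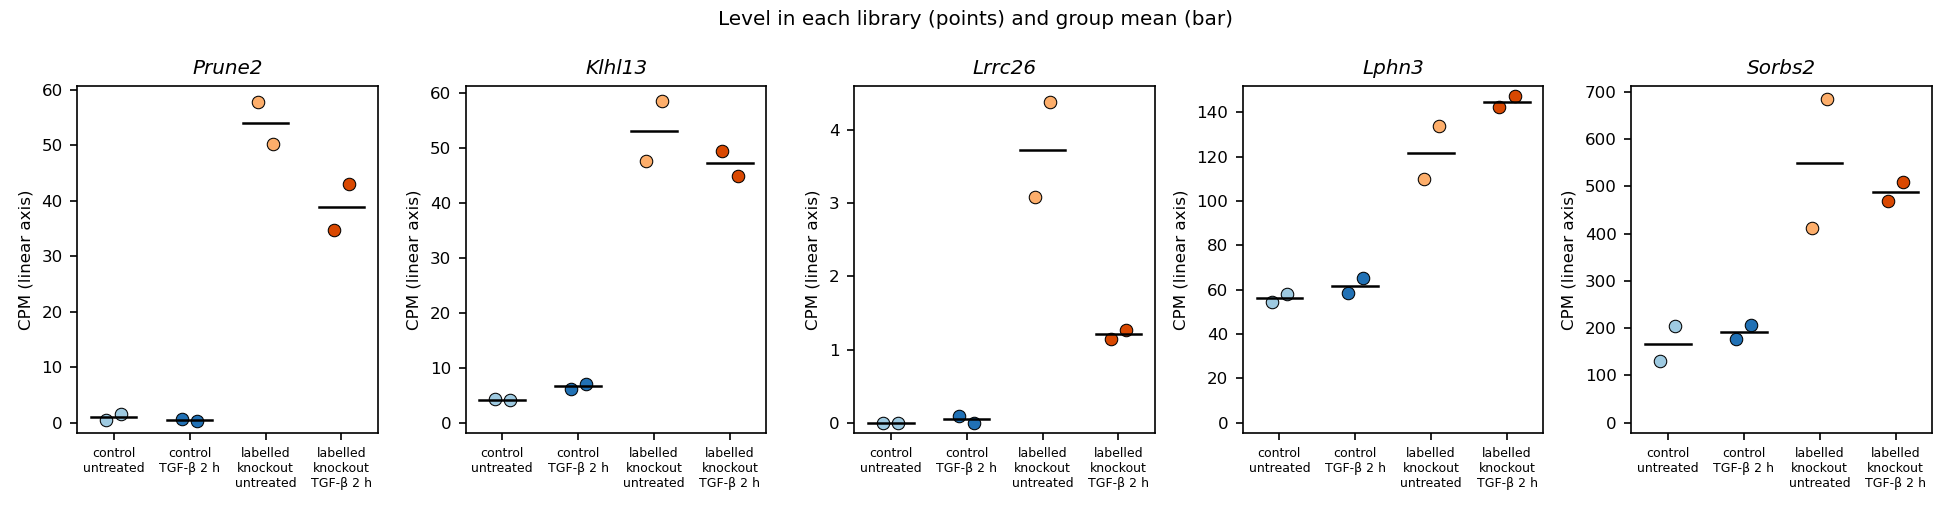
CPM (linear axis from 0) of the 5 genes in each library (points, 2 per group) with the group mean (bar), for control and labelled knockout cells without and with TGF-β for 2 h. In each panel the 4 libraries labelled knockout lie above the 4 control libraries; *Lrrc26* was at 0 CPM in both untreated control libraries.

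*Prune2* (ENSMUSG00000039126.8) lies on the plus strand of chromosome 19, from 17030608 to 17298422 on NCBIM37 (mm9), and has 13653 bases of exons. It had 4 and 13 counts in untreated control libraries and 7 and 2 after TGF-β. In libraries labelled knockout it had 262 and 378 counts untreated and 425 and 541 after TGF-β. The groups of the 2 genotypes were far apart. Mean levels were 1.03 ± 0.781 CPM in untreated control and 54.0 ± 5.32 CPM in untreated cells labelled knockout (SD, n = 2), a 52.2-fold difference, and the lowest knockout library stood 31.7-fold above the highest control library. After TGF-β the means were 0.434 ± 0.314 and 38.8 ± 5.91 CPM (SD, n = 2), an 89.5-fold difference. The fitted log2 differences were 5.69 (SE 0.41) and 6.40 (SE 0.45). They rest on few control counts, and the untreated one ran from 5.08 to 6.76 when each library was left out in turn, the highest without untreated control replicate 2. The treated one ran from 5.87 to 7.42, the highest without treated control replicate 1.

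*Lrrc26* (ENSMUSG00000026961.6) is a short gene on the plus strand of chromosome 2, from 25145435 to 25146700 on NCBIM37, with 1 annotated transcript and 1190 bases of exons. No read was counted in either untreated control library, and 1 and 0 reads after TGF-β. In libraries labelled knockout it had 14 and 33 counts untreated and 14 and 16 after TGF-β. These are levels of 3.09 and 4.39 CPM in untreated and of 1.14 and 1.27 CPM in treated libraries labelled knockout, so that the groups of libraries labelled knockout did not overlap. Against 3 counts in each control library, the untreated mean was at least 10.3-fold higher in cells labelled knockout. The treated ratio, from 30 counts against 1, was 24.3 with a 95% exact counting interval from 4.04 to 991, which covers counting error only. It was not taken against 3 counts per library and cannot be compared with the untreated bound.

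RefSeq lists a single promoter for each of these 2 genes, shown here because both were nearly silent in control cells. The 250 bases before the start are written 5′ to 3′ on the gene's strand (GRCm38.p6), with GC boxes (GGGCGG on either strand) in capitals.
Prune2, chr19:16955868-16956117, plus strand: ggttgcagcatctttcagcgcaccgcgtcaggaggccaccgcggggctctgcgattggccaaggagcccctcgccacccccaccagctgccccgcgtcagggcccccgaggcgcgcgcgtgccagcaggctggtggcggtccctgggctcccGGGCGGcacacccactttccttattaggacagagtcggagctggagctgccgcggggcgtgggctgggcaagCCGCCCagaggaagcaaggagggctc
Lrrc26, chr2:25289661-25289910, plus strand: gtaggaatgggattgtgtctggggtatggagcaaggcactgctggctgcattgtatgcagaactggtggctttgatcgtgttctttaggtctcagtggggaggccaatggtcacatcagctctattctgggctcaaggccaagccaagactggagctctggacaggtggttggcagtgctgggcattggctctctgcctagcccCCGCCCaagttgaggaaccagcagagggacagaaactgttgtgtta
The 2 windows are unlike in base composition. That of *Prune2* is 72.0% G or C with 22 CpG dinucleotides and 2 GC boxes, whereas that of *Lrrc26* is 54.8% G or C with 2 CpG and 1 GC box. Over 32851 RefSeq promoter windows of the same length the median was 52.4% with 6 CpG, and 32.7% held a GC box. Neither window holds the letters TATAA or the AP-1 letters TGANTCA (found on either strand in 22.8% and 6.75% of the windows). The SMAD letters CAGAC were found once in *Lrrc26* and not in *Prune2* (42.2% of the windows), and the E-box letters CANNTG once in each (66.2%). *Klhl13* has 5 such windows, and *Lphn3* (as *Adgrl3*) and *Sorbs2* have 3 each. They range from 29.6 to 68.8% G or C for *Klhl13*, from 60.0 to 76.8% for *Lphn3* and from 41.6 to 48.8% for *Sorbs2*.

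*Klhl13* (ENSMUSG00000036782.6) lies on the minus strand of the X chromosome, from 22796397 to 22942208, with 4345 bases of exons. It was low but present in control cells, at 36 and 33 counts untreated and 65 and 67 after TGF-β. In libraries labelled knockout it had 216 and 440 counts untreated and 607 and 565 after TGF-β. The means were 4.18 ± 0.222 CPM in untreated control and 53.0 ± 7.68 CPM in untreated cells labelled knockout (SD, n = 2), a 12.7-fold difference. After TGF-β they were 6.59 ± 0.707 and 47.2 ± 3.23 CPM (SD, n = 2), a 7.16-fold difference. The 2 groups of libraries labelled knockout overlapped, and the 2 groups of control libraries did not. The fitted log2 differences were 3.66 (SE 0.22) untreated and 2.84 (SE 0.20) after TGF-β.

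*Lphn3* (ENSMUSG00000037605.9) spans 805 kb of the plus strand of chromosome 5, from 81449163 to 82254158, a longer span than 99.9% of the tested genes have. Its level was 54.3 and 58.1 CPM in untreated and 58.4 and 65.1 CPM in treated control libraries, and 110 and 134 CPM in untreated and 143 and 147 CPM in treated libraries labelled knockout. The 4 groups did not overlap, and their order ran from untreated control to treated cells labelled knockout. The 2 control groups were barely apart, with the highest untreated library at 58.1 and the lowest treated one at 58.4 CPM. The difference between genotypes was 2.17-fold untreated and 2.35-fold after TGF-β, with fitted log2 differences of 1.12 (SE 0.15) and 1.23 (SE 0.15).

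*Sorbs2* (ENSMUSG00000031626.9) spans 320 kb of the plus strand of chromosome 8, from 46593148 to 46913259, and its 19425 bases of exons exceed those of 99.8% of the tested genes. It was the most strongly counted of the 5, with 1074 and 1671 counts in untreated control and 1871 and 5150 counts in untreated libraries labelled knockout. In CPM these were 129.5 and 204.0 against 412.5 and 684.5, and after TGF-β 178 and 206 against 468 and 509. The untreated libraries labelled knockout were the most scattered, at 548.5 ± 192 CPM (SD, n = 2). The difference between genotypes was 3.29-fold untreated and 2.54-fold after TGF-β, with fitted log2 differences of 1.72 (SE 0.27) and 1.35 (SE 0.26).

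Per kilobase of exon (RPKM), which allows genes to be compared, the order in untreated control cells was *Sorbs2* (8.58), *Lphn3* (4.23), *Klhl13* (0.963), *Prune2* (0.0758) and *Lrrc26* (0). In untreated cells labelled knockout it was *Sorbs2* (28.2), *Klhl13* (12.2), *Lphn3* (9.18), *Prune2* (3.96) and *Lrrc26* (3.14). *Klhl13* came above *Lphn3*, and the other neighbours kept their order, though *Prune2* and *Lrrc26* overlapped between libraries. *Klhl13* moved from a level above 9.40% of the tested genes to one above 59.1%, *Prune2* from 0.476% to 27.9%, and *Sorbs2* from 49.3% to 81.5%. *Prune2* and *Lrrc26* were still below most tested genes in untreated cells labelled knockout, *Lrrc26* standing above 23.4% of them.

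The response to TGF-β within each genotype was not itself used to choose the genes and was tested. The libraries are shared with that choice, so that these tests are not independent of it. A choice for high levels in untreated cells labelled knockout would favour a fall after TGF-β there. A gene was called where edgeR's quasi-likelihood test gave an adjusted p under 0.05 with a log2 fold change beyond 0.5 in size. In control cells 9.16% of the 13028 genes were called (4.69% higher and 4.47% lower), and *Klhl13*, *Lphn3* and *Sorbs2* were not. *Lrrc26* and *Prune2* entered the test only through their counts in libraries labelled knockout, and with 0 to 1 and 2 to 13 counts per control library a response in control cells was not detectable for *Lrrc26* and hardly so for *Prune2*. In cells labelled knockout 6.82% of the genes were called (4.25% higher and 2.57% lower), and none of the 5 was. In control cells *Klhl13* was at 4.34 and 4.03 CPM without and at 6.09 and 7.09 CPM with TGF-β. Both treated libraries lay above both untreated ones, but the log2 change of 0.65 (SE 0.22) did not pass (edgeR adjusted p = 0.102). In cells labelled knockout its log2 change was -0.17 (SE 0.18, edgeR adjusted p = 0.621). *Lphn3* also lay higher in both treated than in both untreated libraries of each genotype, with log2 changes of 0.14 (SE 0.15) in control and 0.25 (SE 0.15) in cells labelled knockout (edgeR adjusted p = 0.608 and 0.368). Both treated above both untreated was found in 27.4% of the tested genes in control and in 28.4% in cells labelled knockout.

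*Lrrc26* and *Prune2* lay lower in both treated than in both untreated libraries labelled knockout, an arrangement found in 28.3% of the tested genes. For *Lrrc26* the log2 change was -1.64 (SE 0.56), which did not pass after adjustment over all genes (edgeR adjusted p = 0.129, from 0.0760 to 0.429 over 14 alternative settings). In control cells both groups of *Lrrc26* were below the level of 3 counts, and no fold is given. For *Prune2* the log2 change was -0.47 (SE 0.29) in cells labelled knockout (edgeR adjusted p = 0.372). In control cells it was -1.19 (SE 0.66) and ran from -2.22 to -0.11 with 1 library left out. It rests there on 2 to 13 counts per library, too few for a test to decide. *Sorbs2* overlapped between treated and untreated libraries in both genotypes, at 0.20 (SE 0.26) in control and -0.17 (SE 0.26) in cells labelled knockout (edgeR adjusted p = 0.661 and 0.752). The sign of the *Sorbs2* change turned to -0.088 without untreated control replicate 1 and to 0.24 without untreated replicate 2 labelled knockout.

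Whether the response itself differed between the genotypes was tested as an interaction, which called 0 of the 13028 genes with edgeR, against 1134 genes at an unadjusted p under 0.05, and 25 genes with DESeq2. The difference (knockout minus control response, log2) was -0.82 (SE 0.29) for *Klhl13*, 0.71 (SE 0.71) for *Prune2*, -0.37 (SE 0.37) for *Sorbs2* and 0.11 (SE 0.21) for *Lphn3*. The edgeR adjusted p values of *Klhl13*, *Sorbs2* and *Lphn3* were 0.497, 0.815 and 0.925, so that none of them passed. The difference of *Prune2* rests on 2 to 13 counts per control library, too few for its test to decide. For *Lrrc26*, with 1 count in all control libraries together, the interaction could not be assessed. *Klhl13* had the smallest unadjusted p of the 4 differences given (0.0174 in the edgeR fit across all genes). Its interaction ran from -0.96 to -0.66 over 14 alternatives and passed in none. The alternatives use the same libraries. Among these, the untreated libraries labelled knockout, which entered the choice of the genes, carry a negative sign in the interaction. A negative value was thus favoured beforehand.

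**Figure D2:**
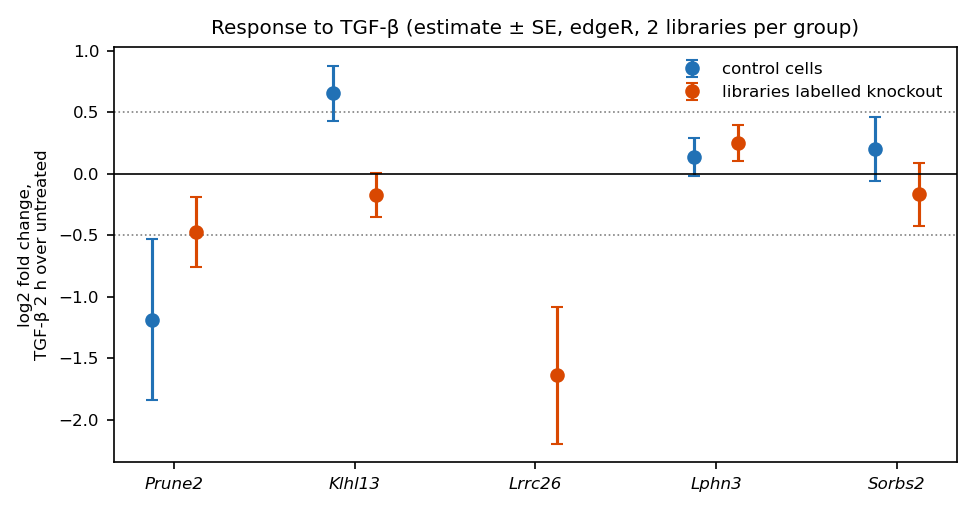
Log2 fold change after TGF-β for 2 h (vertical axis; estimate ± SE from edgeR) of the 5 genes in control cells (blue) and in libraries labelled knockout (orange); dotted lines mark an absolute change of 0.5. None of the 9 responses shown passed the test, but that of *Prune2* in control cells, at 2 to 13 counts per library, could hardly do so. *Lrrc26*, at -1.64 in libraries labelled knockout, has no estimate in control cells because its counts there were 0 or 1.

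Relatives and partners of the 5 genes were followed by lists, and between genotypes these other genes were tested. Of the 44 other genes tested, edgeR called 0 higher and 2 lower untreated (background 1.03% and 0.798%). With TGF-β it called 5 higher and 3 lower (background 8.47% and 6.57%). The median log2 differences of the lists lay between -0.07 and 0.18 untreated and between -0.15 and 0.47 after TGF-β, beside 0.02 and -0.01 over all tested genes, and the highest was that of the latrophilin list after TGF-β. None of the 3 tested relatives of *Prune2*, its namesake *Prune* and the BCH-domain genes *Bnip2* and *Arhgap1*, was called in any comparison. *Prune*, *Bnip2* and *Arhgap1* were at 51.4, 99.0 and 94.5 CPM in untreated control and at 45.8, 101 and 107 CPM in untreated cells labelled knockout.

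Of 23 other kelch-like and CUL3 ligase genes, none was called untreated. *Klhl9*, the partner of *Klhl13*, was at 143 ± 21.4 CPM in control and 122 ± 4.32 CPM in cells labelled knockout (SD, n = 2), and *Cul3*, the ligase scaffold, at 193 ± 32.9 and 150 ± 2.15 CPM. Neither was called. After TGF-β *Klhl26* was at 11.1 and 15 CPM in control and 52.4 and 32.3 CPM in libraries labelled knockout, a rise of 1.70 on the log2 scale (edgeR adjusted p = 0.00652) that passed in all 15 alternatives. From treated control to treated cells labelled knockout, *Klhl5* rose by 0.87 (edgeR adjusted p = 0.0421) and *Aurkb*, which encodes Aurora B, fell by 0.64 on the log2 scale (edgeR adjusted p = 0.0474), and each of these calls was lost in 9 of 15 alternatives. Under TGF-β, *Klhl24* rose in control cells by 0.76 (edgeR adjusted p = 0.0250, lost in 6 of 15) and *Aurkb* fell in cells labelled knockout by 0.79 (edgeR adjusted p = 0.0397, lost in 6 of 15).

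The BK channel list was nearly empty in these cells. *Kcnma1*, which encodes the pore-forming subunit that LRRC26 modulates, had 1 count over all 8 libraries. *Kcnmb1*, *Kcnmb3*, *Lrrc38* and *Lrrc52* had 0, *Kcnmb2* and *Lrrc55* 2 each, and only *Kcnmb4*, at 1.34 CPM in untreated control and 1.55 CPM in untreated cells labelled knockout, was high enough to be tested and was not called. *Lrrc26* reads were thus counted in libraries labelled knockout almost without reads of its channel.

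Of 8 other genes of the latrophilin list, 0 were called higher and 2 lower untreated, and 2 higher and 2 lower after TGF-β. *Lphn1*, a close relative of *Lphn3*, was at 33.8 and 28.2 CPM in untreated control and 54.9 and 67.8 CPM in untreated libraries labelled knockout, a difference that was not called (edgeR adjusted p = 0.147). After TGF-β it was at 29.5 and 14.5 against 51.3 and 62.8 CPM and was called 1.37 higher on the log2 scale (edgeR adjusted p = 0.0164). The difference was 1.97 without treated control replicate 1 and 0.96 without treated control replicate 2, and the call was lost without treated replicate 2 labelled knockout (adjusted p = 0.0773) and with only the 4 treated libraries (0.0799). *Lphn2* was at 1.03 CPM in untreated control and 1.57 CPM in untreated cells labelled knockout and was not called.

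*Odz3* (teneurin 3) and *Unc5c* (a netrin receptor that can bind FLRT proteins) were lower in cells labelled knockout, opposite to *Lphn3*. *Odz3* had 31 and 35 counts in untreated control and 0 and 4 in untreated libraries labelled knockout, and 47 and 40 against 4 and 3 after TGF-β (edgeR adjusted p = 0.0406 and 0.00587). *Unc5c* had 27 and 40 counts against 2 and 0 untreated, and 43 and 39 against 3 and 1 after TGF-β (edgeR adjusted p = 0.0391 and 0.00627). Untreated, the call of *Odz3* was lost in 8 and that of *Unc5c* in 6 of 15 alternatives, with adjusted p up to 0.238 and 0.247. These included the omission of any untreated library. After TGF-β both calls were lost only without treated replicate 2 labelled knockout, at adjusted p = 0.0513 and 0.0525. *Odz4* was called 0.54 higher in treated cells labelled knockout (edgeR adjusted p = 0.0457) and fell by 0.60 under TGF-β in control cells (edgeR adjusted p = 0.0446), calls lost in 11 and 10 of 15 alternatives. *Unc5b* rose by 1.11 under TGF-β in cells labelled knockout (edgeR adjusted p = 0.0376, lost in 6 of 15).

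Of 9 other SoHo adaptors and SORBS2 partners, none was called untreated and 1 after TGF-β. *Ptk2b*, which encodes the focal adhesion kinase relative PYK2, was at 91.6 and 96.8 CPM in treated control and 150 and 189 CPM in treated libraries labelled knockout, 0.85 higher on the log2 scale (edgeR adjusted p = 0.0115). This call was lost without treated replicate 2 labelled knockout and with only the 4 treated libraries (edgeR adjusted p = 0.0642). Under TGF-β, *Ptk2b* also rose in cells labelled knockout by 0.76 on the log2 scale (edgeR adjusted p = 0.0266, lost in 3 of 15 alternatives).

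**Figure D3:**
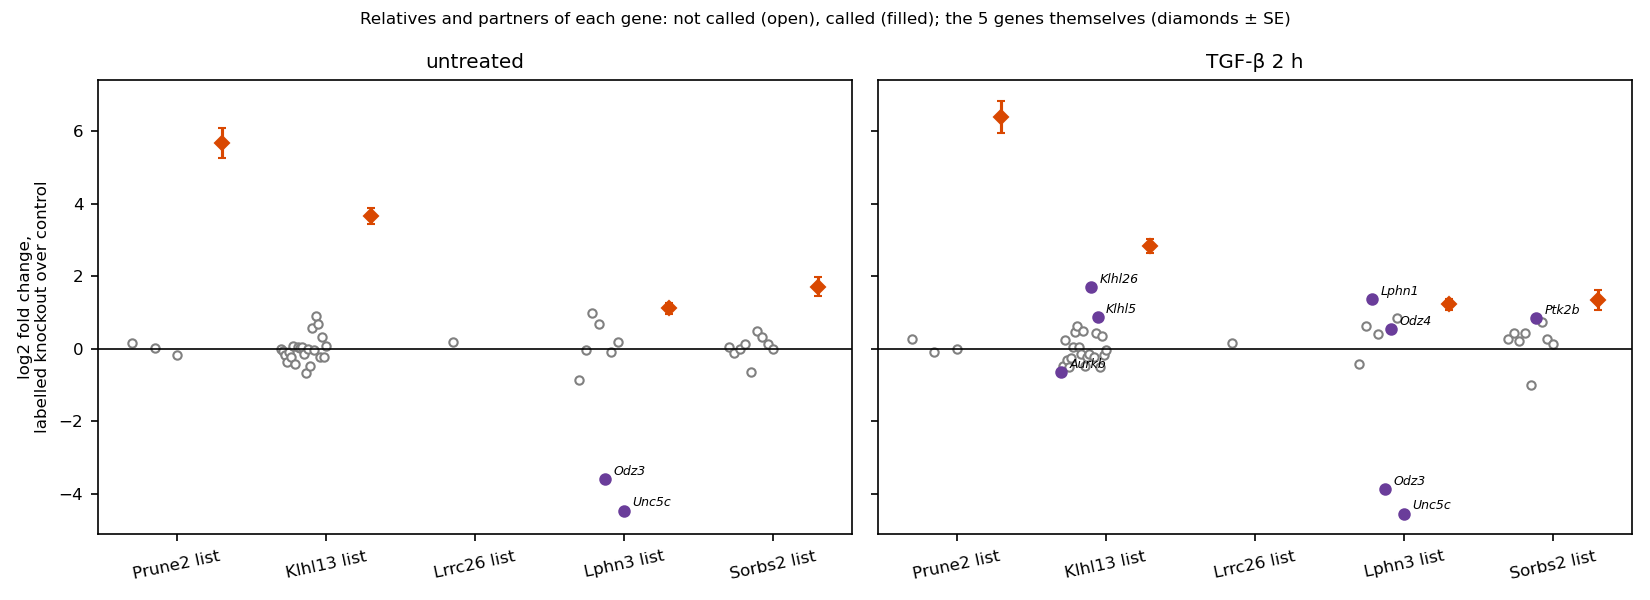
Log2 fold change of labelled knockout over control cells (vertical axis) without (left) and with TGF-β (right) for the other tested genes of each list (circles, filled and named where called) and for the genes themselves (diamonds ± SE; *Lrrc26* has none, since its control counts were 0 or 1). Most relatives lie near 0; *Odz3* and *Unc5c* lie low in both panels and *Klhl26* and *Lphn1* are called higher after TGF-β.

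Each of the 5 genes lies at a place of its own, on chromosomes 19, X, 2, 5 and 8. Within 500 kb of them, 52 other genes were tested, of which edgeR called 1 higher and 0 lower untreated (1.92% higher, against 1.03% of all tested genes). In treated cells 8 of them were called higher and 0 lower (15.4% higher, against 8.47%). No test of these counts was made. Of the 8, 7 lie among the 36 genes around *Lrrc26*, a gene-dense stretch, and 1 is *Gcnt1*, next to *Prune2*. *Anapc2*, a subunit gene of the anaphase-promoting complex and the nearest tested gene to *Lrrc26*, ends 4.00 kb before it. *Anapc2* was at 48.6 and 53.8 CPM in untreated control and 78.3 and 87.1 CPM in untreated libraries labelled knockout, and at 39.4 and 36.6 against 99 and 95 CPM after TGF-β. It was called higher by 0.69 untreated (edgeR adjusted p = 0.0492, lost in 8 of 15 alternatives) and by 1.35 after TGF-β (edgeR adjusted p = 0.00109, kept in all 15). *Gcnt1* was 0.85 higher in treated cells labelled knockout than in treated control cells (log2, edgeR adjusted p = 0.0443, lost in 8 of 15 alternatives). The nearest tested genes of *Klhl13*, *Lphn3* and *Sorbs2* were not called in either treatment, and those of *Lphn3* lie 119 and 2300 kb away.

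**Figure D4:**
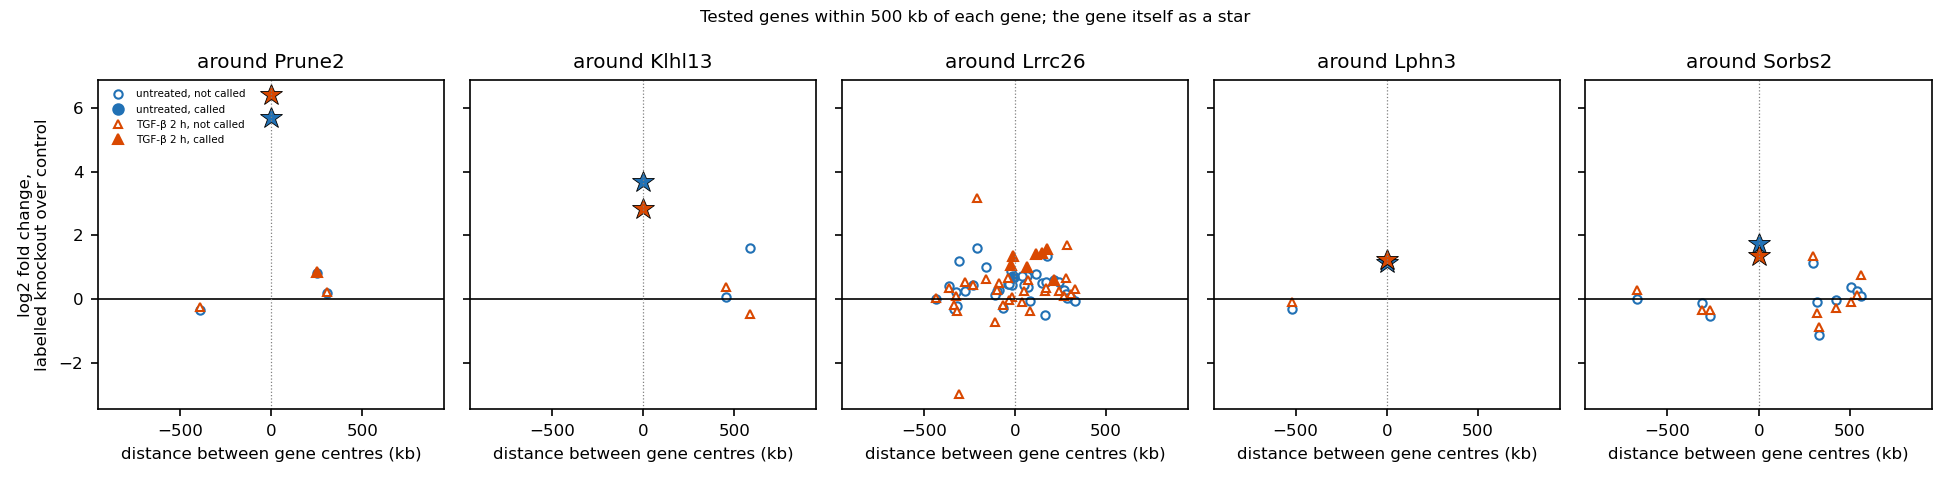
Log2 fold change of labelled knockout over control cells (vertical axis) against the distance between gene centres (horizontal axis, kb) for tested genes within 500 kb of each gene, untreated (blue circles) and after TGF-β (orange triangles); filled symbols were called, and stars mark the gene itself (none for *Lrrc26*). Called neighbours, 7 of 36 after TGF-β, lie around *Lrrc26* and 1 of 3 around *Prune2*; no neighbour of *Klhl13*, *Lphn3* or *Sorbs2* was called.

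Annotated genes that overlap 3 of the 5 had few or no reads. The antisense gene *D330022K07Rik* shares 660 exon bases with *Sorbs2* and *Gm16054* shares 1130 with *Lphn3*, and both had 0 counts in all libraries. *Gm14523*, which shares 160 exon bases with *Klhl13* on the same strand, had 8 counts in all, 0 in control and 8 in libraries labelled knockout. The sources used here do not say whether strand was used in counting, so that reads of overlapping genes cannot be told apart in the shared bases.

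The locus of *Lnc-Nr6a1* also carries 2 miRNA genes, *Mir181a-2* and *Mir181b-2*, whose mature RNAs are shown because both have the same seed (bases 2 to 8, in capitals), the part that pairs with target RNAs. They are written 5′ to 3′ as in RefSeq (GRCm38.p6, plus strand).
miR-181a-5p, chr2:38852741-38852763: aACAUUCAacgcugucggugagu
miR-181b-5p, chr2:38853845-38853868: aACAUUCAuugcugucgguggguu
The libraries do not measure mature miRNAs, and reads over the 2 hairpins were too few to compare, 8 and 5 counts in all, each of them in control libraries. The complement of the seed, TGAATGT, was found in the longest annotated 3′ UTR (GENCODE vM1) of 17.4% of 11209 tested genes. Among the 5 genes only *Lphn3* holds it there, once, at position 2683 of a 5563-base UTR of transcript ENSMUST00000132375.1.
Lphn3, site in capitals: aattatgcTGAATGTcatcttcc
That UTR is the only one with a site among 21 annotated for *Lphn3*, and 53.2% of 408 tested genes with a UTR of like length hold one. The longest UTRs of *Prune2* (3118 bases), *Sorbs2* (2099), *Klhl13* (1094) and *Lrrc26* (120) hold none, although another of the 5 annotated 3′ UTRs of *Prune2* does. Over the 11209 tested genes with an annotated 3′ UTR, the median log2 difference between genotypes was -0.04 with and 0.04 without a site untreated. After TGF-β it was -0.01 and 0.03. Genes with and without a site were not matched for UTR length. Genes called higher made up 1.28% of those with and 1.15% of those without a site untreated, and 9.0% and 9.76% after TGF-β.

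Genes whose levels followed the same course over the 8 libraries were ranked by the root mean square difference of their centred log2 CPM among all tested genes. Closest to *Prune2* were *Muc5b*, a gel-forming mucin (0.95), *Casp1*, the inflammasome protease (1.12), and the coagulation factor gene *F5* (1.35). *Lrrc26* was the 4th (1.41) and *Klhl13* the 8th (1.49). *Muc5b* was at 2.68 CPM in untreated control and 35.5 CPM in untreated cells labelled knockout, against 1.03 and 54.0 CPM for *Prune2*. Closest to *Lrrc26* were *Klhl13* itself (0.52), the membrane mucin *Muc4* (0.58) and *Casp1* (0.60). With 0 or 1 counts per control library, all distances of *Lrrc26* depend on the prior count of 2, which is added before taking logs. *Klhl13* also did not share its lower level in treated libraries labelled knockout. *Casp1*, *F5* and *Muc4* were at 0.364, 0.182 and 0.243 CPM in untreated control, near or below the 0.362 to 0.366 CPM of 3 counts. Closest to *Klhl13* were *Spats2l* (0.32), *Cdhr2* (0.38) and *Clmn* (0.46). *Spats2l* was at 5.53 and 51.1 CPM in the untreated genotypes, close to the 4.18 and 53.0 CPM of *Klhl13*.

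*Lphn3* and *Sorbs2* followed a flatter course. Closest to *Lphn3* were *Parm1* (0.13), *Cyb561* (0.16) and *Tle2* (0.18), and closest to *Sorbs2* were *Wnt4*, a secreted signalling protein of the mammary gland (0.22), *Heg1* (0.24) and the prostaglandin synthase gene *Ptgds* (0.26). *Wnt4* was at 8.43 CPM in untreated control and 24.8 CPM in untreated cells labelled knockout. *Lphn3* was the 6th gene from *Sorbs2*, at 0.29, whereas *Prune2* was the 12948th, at 2.21. *Ptgds* is also one of the 7 called genes around *Lrrc26*.

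**Figure D5:**
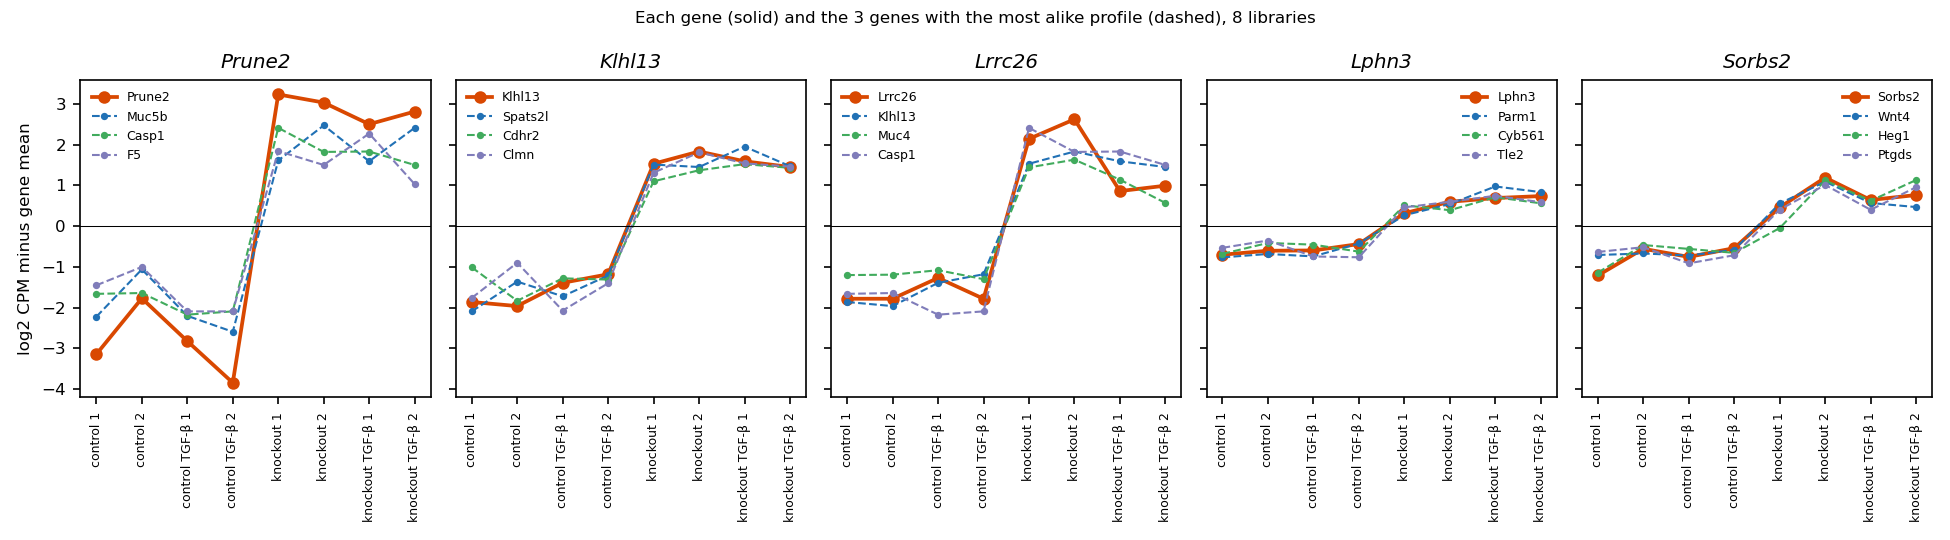
Log2 CPM (prior count 2) minus the mean of each gene over the 8 libraries (vertical axis), for each of the 5 genes (solid) and the 3 tested genes with the smallest root mean square difference from it (dashed). All lines step up from the 4 control to the 4 labelled knockout libraries. Among the 5 solid lines as drawn the step is largest for *Prune2* and smallest for *Lphn3*. The step of *Lrrc26*, at 0 or 1 counts per control library, depends on the prior count and cannot be ranked against that of *Prune2*.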

How the data were processed

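RNA-seq was analysed in NMuMG control cells and cells labelled knockout, untreated or treated with TGF-β1 for 2 h (2 libraries per group, grouped by their labels). The authors deposited 1 table of whole-number read counts per gene, not normalized, and every column was used. According to the study's methods, reads were aligned with subjunc of Rsubread to mm10 and mm9, deduplicated with samtools and tested with DESeq2, whereas the submitters' processing notes name HISAT2, limma and mm10. Duplicate removal lowers the counts of abundant transcripts more than those of rare ones. Study and labels also differ on RNA extraction, kit (stranded mRNA or stranded total RNA), sequencer and read layout, and how reads were counted, and with which strand option, is not given in the sources used here. Gene identifiers were identical to GENCODE vM1 on NCBIM37 (mm9), which gave positions and symbols.

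From the counts, genes passing filterByExpr (13028) were fitted to all 8 libraries without a block with edgeR 4.0.16 (glmQLFit, TMM) in R 4.3.3, with glmQLFTest for each contrast and Benjamini-Hochberg adjustment over all tested genes. Calls needed an adjusted p under 0.05 and a log2 fold change beyond 0.5 in size (for the interaction, the p only). Standard errors are the absolute log2 fold change divided by the square root of F. RPKM divides CPM by exon length (all annotated exons merged). A fold against libraries at 0 was taken against 3 counts per library. The scripts were tested on simulated data. The study's methods call the replicates biological, and no replicate pair agreed within sampling noise.

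The 5 genes, the lists of relatives, partners and markers, and the tests were chosen with earlier results of these data known. Named beside the 5 are the targeted locus, list genes (called ones and closest relatives), overlapping and nearest tested genes, and the 3 genes most alike. The values of 1 list gene are not reported here. Alternatives were other scaling (RLE), DESeq2 1.42.0, no filter and a stricter filter on low counts, a replicate block, only the 4 libraries compared, thinning to the smallest total and each library left out. Depth limits *Lrrc26* and *Prune2* in control libraries, at 0 to 13 counts each.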

Additional observations from a re-analysis of the deposited data

How the results depend on the processing

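The TGF-β responses and interactions of *Klhl13*, *Lphn3* and *Sorbs2*, and the responses of *Prune2* and *Lrrc26* in cells labelled knockout, did not pass the test under any alternative run. The control response and the interaction of *Prune2* rest on 2 to 13 counts per control library, and that they did not pass either says nothing about stability. Signs turned for 5 of them, each near 0 or with a wide error: *Sorbs2* in control cells (-0.088 without untreated control replicate 1, range over libraries left out -0.088 to 0.57) and in cells labelled knockout (0.24 without untreated replicate 2 labelled knockout, range -0.49 to 0.24), and the interaction of *Prune2* (-0.36 without untreated control replicate 2, range -0.36 to 1.76), *Lphn3* (-0.019 without untreated replicate 1 labelled knockout, range -0.019 to 0.26) and *Sorbs2* (0.041 without untreated replicate 2 labelled knockout, range -0.74 to 0.041). Between genotypes each of the 4 fitted genes stayed higher. With libraries left out, the untreated log2 difference ran from 5.08 to 6.76 for *Prune2*, 3.50 to 3.8 for *Klhl13*, 0.97 to 1.25 for *Lphn3* and 1.31 to 2.08 for *Sorbs2*, and the treated one from 5.87 to 7.42, 2.73 to 2.96, 1.15 to 1.32 and 1.24 to 1.47. Thinning all libraries to 4297832 counts gave 2.66 for treated *Klhl13*.

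Counts of called genes moved more. Genes called under TGF-β in control cells (1194) numbered 2021 without a filter on low counts, 483 with only the 4 libraries compared and 139 to 1479 with 1 library left out. In cells labelled knockout (889) they numbered 1832 without the filter and 136 to 1381 with 1 library left out. The interaction (0) gave 25 with DESeq2, 211 without the filter and 0 to 6 with 1 library left out. Untreated genotype calls (238) numbered 428 with DESeq2, 756 without the filter, 797 with only the 4 libraries and 41 to 393 with 1 left out, and treated ones (1959) 402 with only the 4 libraries and 486 to 2788 with 1 left out. The cause was not tested, beyond the loss of a library or the added genes that the setting itself makes.

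Replicate numbers are shared by the groups, but with 2 pairs they do not establish a pairing, and deviations of same-numbered libraries correlated at 0.297 (control, untreated and treated), 0.098 (untreated genotypes), -0.00915 (knockout) and -0.473 (treated genotypes). With a replicate block, the calls numbered 831 and 676 under TGF-β, 0 for the interaction, 150 untreated and 1490 treated between genotypes, and none of the TGF-β responses and interactions named above passed. A crossed pairing of the treated libraries, chosen after seeing the data, gave 2809 calls.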
